A study of Mus musculus with 4 samples.

Results

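The semaphorin, ephrin, Slit and netrin guidance genes were taken by symbol from the gene counts of mouse hippocampus, as all symbols that begin with Sema3 to Sema7, Plxn, Epha or Ephb with a number, Efna or Efnb, Ntn or Unc5, together with Nrp1, Nrp2, Slit1 to Slit3 and Robo1 to Robo4. The rule used no measured value and gave 72 of the 22609 symbols. They were 20 semaphorins, 9 plexins, 2 neuropilins, 8 ephrins, 14 Eph receptors, 3 Slits, 4 Robos, 6 netrins and 6 symbols beginning with Unc5. By role, 37 are ligands and 33 are receptors. The other 2, Unc50 and Unc5cl, match by their letters only and are not netrin receptors.

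RNA-Seq had been run on 4 hippocampus libraries, with FLOX+GCI replicates 1 and 2 as controls and FBN-ARO-KO+GCI replicates 1 and 2. FBN-ARO-KO mice carry a floxed Cyp19a1, the gene for aromatase, which makes 17β-estradiol, and a Cre driven by the CaMKIIα promoter, which is active in forebrain excitatory neurons, so other cells of the hippocampus keep the gene. All mice of both genotypes were 3 to 5 month old females, ovariectomized 1 week earlier, that underwent global cerebral ischemia (GCI) by 20 min of bilateral carotid occlusion and 24 h of reperfusion. No library came from sham-operated mice, so a value gives a difference between genotypes after ischemia and not a response to it. The labels do not say whether the libraries of a genotype came from separate mice, and p-values then measure only the spread between these samples, which may be technical. Counts assigned to genes ranged from 24333396 to 33076795 per library, and 3 counts, taken as the smallest detectable level, corresponded to 0.0907 to 0.123 CPM (counts scaled to an equal library total), which covers counting error only. The targeted Cyp19a1 had 4 and 1 counts in the controls and 2 and 2 in the knockouts, so that the genotype could not be checked at this depth.

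Guidance cues steer growing axons and dendrites by attraction or repulsion, and many stay on in the adult hippocampus at synapses, spines and blood vessels. Semaphorins signal through plexins, and most class 3 semaphorins need a neuropilin as co-receptor. Ephrins are tethered to the cell surface, bind Eph receptor tyrosine kinases on the neighboring cell and can signal back into their own cell. Slits are secreted repellents read by Robo receptors, and netrins attract through Dcc and repel through Unc5 receptors.

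With edgeR's quasi-likelihood test, no guidance gene differed between genotypes at an adjusted p under 0.05 (0 of the 70 tested), beside 2 of 14527 genes over the whole table, or 0.0138%. DESeq2 called 1 guidance gene (Nrp1), beside 4.92% of the genes it gave an adjusted p. It gave none to part of the 70, among them Plxnd1, Epha8 and Sema3d. The likelihood ratio test of edgeR called 1 (Plxnd1), beside 2.02% of all genes. With the quasi-likelihood test the lowest adjusted p of the guidance genes was 0.238, shared by Plxnd1, Epha8, Nrp1, Sema3e and Sema3d. At an unadjusted p under 0.05, 18 guidance genes differed, of which 5 had the higher level in FBN-ARO-KO+GCI and 13 the lower. These are 7.14% and 18.6% of those tested, where the same rule took 8.72% of all genes as higher and 7.82% as lower. The median log2 fold change was -0.08 for the guidance genes and -0.01 for all genes. Ligands made up most of the lower ones, with 2 of 37 ligands higher and 10 lower, beside 3 of 32 receptors higher and 3 lower. This contrast was not kept when GC content and length of the transcripts were corrected for, as described below. Then 4 of 37 ligands were higher and 4 lower, beside 4 of 32 receptors higher and 3 lower. The corrected fit took 7.89% of all genes as higher and 3.48% as lower. The median log2 fold change of the ligands went from -0.17 to -0.04, and that of all genes from -0.01 to 0.03. In 12 guidance genes both FBN-ARO-KO+GCI libraries lay above both FLOX+GCI libraries and in 26 both lay below, where 25.9% and 25.8% of all genes did so, and the other 32 overlapped. In a bulk sample of hippocampus, fewer cells of a type and less RNA per cell cannot be told apart.

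**Figure D1:**
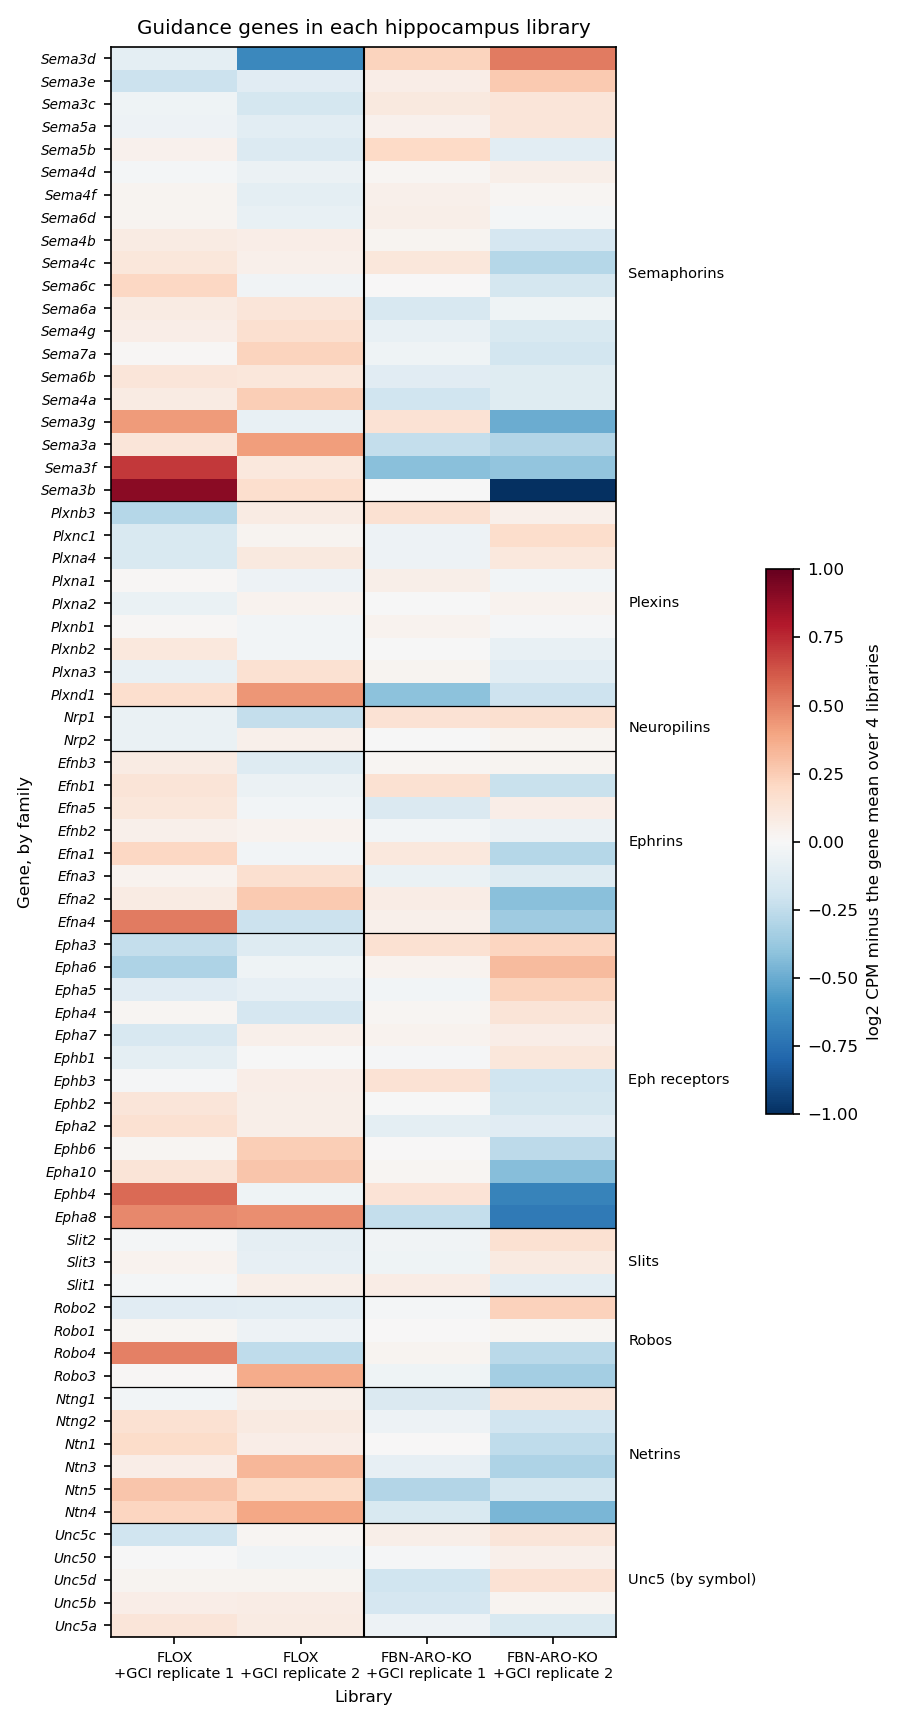
Each row is 1 of the 70 guidance genes that passed the low-count filter, grouped by family, and each column is a library. Colors show the log2 CPM minus the mean of that gene over the 4 libraries, from -1 in dark blue to 1 in dark red. Sema3d, Sema3e, Nrp1 and Epha3 are redder in both FBN-ARO-KO+GCI libraries, and Plxnd1, Epha8, Sema3f, Sema3a and Ntn4 are bluer in both.

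Levels between genes were compared as CPM per kb of transcript, averaged over all 4 libraries. Of the 70 genes, 32 were above 10 CPM per kb and 7 were below 1. The highest was Epha4 at 71.6 CPM per kb, a receptor on dendritic spines that binds ephrins of both the A and B kind. It was followed by Efnb3, a transmembrane ephrin, at 57.0, Unc5a at 47.4, Sema7a at 41.8 and Slit1 at 40.5 CPM per kb. In the other families the leading genes were Plxna1 at 26.6, Nrp1 at 26.4, Ntng1 at 16.9 and Robo2 at 15.3 CPM per kb. The lowest of each family were Epha2 at 0.34, Efna4 at 0.394, Sema3a at 0.570, Ntn4 at 1.45, Robo3 at 1.52, Plxna3 at 3.88, Unc5d at 4.34, Slit2 at 5.85 and Nrp2 at 14.7 CPM per kb. With both FLOX+GCI libraries given first, Epha1 had 3, 0, 3 and 1 counts and Unc5cl 2, 9, 7 and 9 counts per library, and both were below the filter and not tested.

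**Figure D2:**
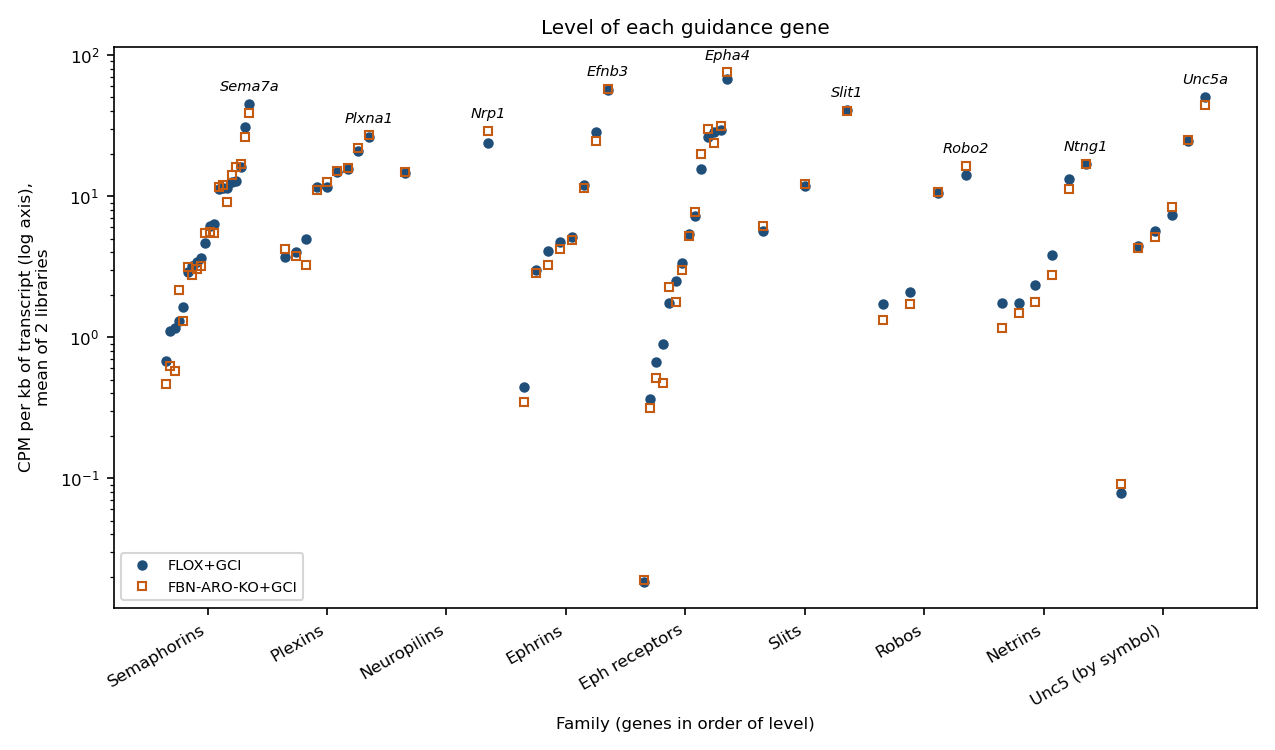
The level of each of the 72 genes is shown as CPM per kb of transcript on a log axis, by family and in order of level, with filled circles for the FLOX+GCI mean and open squares for the FBN-ARO-KO+GCI mean of 2 libraries. Epha4, Efnb3, Unc5a, Sema7a and Slit1 stand highest, and the circles and squares lie close together for most genes.

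Among the semaphorin ligands, 2 of 20 were higher and 6 lower at an unadjusted p under 0.05, and the median log2 fold change was -0.16. The class 3 semaphorins, which are secreted, went in both directions. Sema3e, the ligand of Plexin D1 known from vessel patterning and synapse choice, lies on chromosome 5 of mm9 from 14025276 to 14256689 and read 84.3 and 90.2 CPM in FLOX+GCI and 102 and 117 CPM in FBN-ARO-KO+GCI. The groups did not overlap, and the means were 87.3 ± 4.20 and 109 ± 10.6 CPM (SD, n = 2). On the log2 scale the fold change was 0.33 with a standard error of 0.09, and the adjusted p of edgeR's quasi-likelihood test was 0.238.

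Sema3d, a cue for axons and for endothelial cells, lies on the same chromosome from 12383166 to 12588943 and read 10.1 and 6.86 CPM in FLOX+GCI and 12.6 and 15.4 CPM in FBN-ARO-KO+GCI. Both knockout libraries were above both controls, with a log2 fold change of 0.72 ± 0.20 (SE) and an adjusted p of 0.238. The control libraries of Sema3d differed from each other by more than the nearest libraries of opposite genotype did. With FLOX+GCI replicate 1 left out, Sema3d had a log2 fold change of 1.03 and its adjusted p by edgeR's quasi-likelihood test was 0.0248, where that fit called 1.3% of all genes. That fit holds a single control library, which is assumed to vary as the knockout pair does. With each of the other libraries left out the adjusted p of Sema3d was between 0.190 and 0.844.

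The class 3 semaphorins that were lower stood at low levels. Sema3f, a repellent of hippocampal axons that acts through Nrp2, read 4.67 and 3.08 CPM in FLOX+GCI and 2.14 and 2.18 CPM in FBN-ARO-KO+GCI, and the log2 fold change was -0.84 ± 0.27 (SE), and the groups did not overlap. Sema3a, known for collapsing growth cones, read 3.59 and 4.42 CPM in FLOX+GCI and 2.81 and 2.70 CPM in FBN-ARO-KO+GCI for a log2 fold change of -0.54 ± 0.22 (SE). Sema3b, a relative of these that also binds neuropilins, read 4.79 and 2.88 CPM against 2.56 and 1.23 CPM, a log2 fold change of -1.0 ± 0.39 (SE). For Sema3b the lower control and the higher knockout library were close together. The adjusted p of edgeR's quasi-likelihood test was 0.248 for Sema3f, 0.283 for Sema3a and 0.276 for Sema3b.

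Of the membrane-bound semaphorins, Sema6b, Sema7a and Sema4a were lower at an unadjusted p under 0.05. Sema6b, a transmembrane cue for mossy fiber axons that acts through plexin-A receptors, read 120 and 119 CPM in FLOX+GCI and 102 and 101 CPM in FBN-ARO-KO+GCI. The libraries of a genotype were almost equal, and the log2 fold change was -0.23 ± 0.07 (SE). Sema7a, held in the membrane by a lipid anchor and a ligand of Plexin C1, read 138 and 160 CPM against 133 and 121 CPM, a log2 fold change of -0.23 ± 0.10 (SE). Sema4a, a transmembrane semaphorin also known from immune cells, read 34.3 and 38.5 CPM against 28.2 and 29.9 CPM, a log2 fold change of -0.32 ± 0.10 (SE). None of these overlapped between genotypes, and the adjusted p of edgeR's quasi-likelihood test was 0.244 for Sema6b, 0.291 for Sema7a and 0.247 for Sema4a. The other 12 semaphorins had log2 fold changes between -0.33 and 0.22 and no unadjusted p under 0.0555.

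Of the plexin and neuropilin receptors, 1 was higher and 1 lower at an unadjusted p under 0.05 of 11 tested, and the median log2 fold change was 0.03. Plxnd1, the receptor of Sema3e, lies on chromosome 6 of mm9 from 115904829 to 115945023 and read 30.9 and 37.4 CPM in FLOX+GCI and 20.7 and 23.8 CPM in FBN-ARO-KO+GCI. Both knockout libraries lay below both controls, with means of 34.1 ± 4.58 and 22.2 ± 2.24 CPM (SD, n = 2) and a ratio of 0.652. Its log2 fold change of -0.62 ± 0.13 (SE) carried the smallest unadjusted p of the guidance genes in edgeR's quasi-likelihood fit, 0.00181, with an adjusted p of 0.238. Its ligand Sema3e thus had a higher and Plxnd1 a lower value in each knockout library than in either control. Their transcripts differ in GC content, at 41.8% for Sema3e and 60.8% for Plxnd1. With the GC correction described below, the log2 fold changes were 0.13 for Sema3e and -0.41 for Plxnd1.

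Plxnd1 passed the adjusted threshold in other fits. The adjusted p was 0.00876 with edgeR's likelihood ratio test, which called 2.02% of all genes, and 0.0146 in edgeR's quasi-likelihood test without FLOX+GCI replicate 1, where its log2 fold change was -0.75. The latter again assumes that a single control library varies as the knockout pair does, and with each other library left out the adjusted p of Plxnd1 was between 0.169 and 0.815. With the GC correction it was 0.386. DESeq2 gave Plxnd1 no adjusted p, since its filter on mean counts left the gene out.

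Nrp1, the co-receptor of class 3 semaphorins and of VEGF, lies on chromosome 8 of mm9 from 130882973 to 131029362 and read 148 and 131 CPM in FLOX+GCI and 171 and 172 CPM in FBN-ARO-KO+GCI. Both knockout libraries were above both controls and close to each other, with means of 139 ± 12 and 172 ± 0.828 CPM (SD, n = 2). The log2 fold change was 0.30 ± 0.08 (SE), with an adjusted p of 0.238 by edgeR's quasi-likelihood test. DESeq2 gave Nrp1 an adjusted p of 0.0490, where it called 4.92% of the genes it gave an adjusted p. Nrp2, the co-receptor preferred by Sema3f, read 94.6 and 103 CPM against 98.7 and 101 CPM, and its groups overlapped.

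Plxna4, which pairs with neuropilins to receive Sema3a, read 242 and 287 CPM in FLOX+GCI and 258 and 289 CPM in FBN-ARO-KO+GCI. Plxna1, another neuropilin partner, read 242 and 232 CPM against 250 and 236 CPM. Both overlapped between genotypes, with log2 fold changes of 0.05 ± 0.10 (SE) for Plxna4 and 0.03 ± 0.07 (SE) for Plxna1. The other 6 plexins also overlapped, with log2 fold changes between -0.08 and 0.19, so that of 9 plexins Plxnd1 alone had groups that did not overlap.

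The 250 bases before the start of 4 of these genes are shown because they had the smallest unadjusted p of the semaphorin ligands and receptors, with Sema3e, Sema3d and Nrp1 higher and Plxnd1 lower, and because estrogen receptors, whose ligand aromatase makes, bind DNA at a known element. Letters are from the RefSeq promoter table of GRCm38.p6 and positions from an exact match to mm9, 5′ to 3′ on the strand of the gene. Capitals mark the half-site GGTCA or its reverse complement TGACC of that element.
Plxnd1, chr6:115945024-115945273, minus strand: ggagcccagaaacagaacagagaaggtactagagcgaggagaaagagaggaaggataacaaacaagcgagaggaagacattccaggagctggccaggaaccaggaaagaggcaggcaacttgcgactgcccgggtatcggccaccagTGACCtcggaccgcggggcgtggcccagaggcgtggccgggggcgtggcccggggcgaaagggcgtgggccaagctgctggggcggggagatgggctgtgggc
Nrp1, chr8:130882723-130882972, plus strand: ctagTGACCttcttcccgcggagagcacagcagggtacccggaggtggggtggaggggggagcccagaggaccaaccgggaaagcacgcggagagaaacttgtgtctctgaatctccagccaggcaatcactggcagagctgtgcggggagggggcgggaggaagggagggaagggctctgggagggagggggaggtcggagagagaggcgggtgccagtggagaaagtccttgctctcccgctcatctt
Sema3e, chr5:14025026-14025275, plus strand: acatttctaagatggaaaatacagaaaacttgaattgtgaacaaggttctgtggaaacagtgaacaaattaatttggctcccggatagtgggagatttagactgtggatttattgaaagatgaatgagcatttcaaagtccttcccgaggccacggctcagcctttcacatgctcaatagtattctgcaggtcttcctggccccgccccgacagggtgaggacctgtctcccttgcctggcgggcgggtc
Sema3d, chr5:12382916-12383165, plus strand: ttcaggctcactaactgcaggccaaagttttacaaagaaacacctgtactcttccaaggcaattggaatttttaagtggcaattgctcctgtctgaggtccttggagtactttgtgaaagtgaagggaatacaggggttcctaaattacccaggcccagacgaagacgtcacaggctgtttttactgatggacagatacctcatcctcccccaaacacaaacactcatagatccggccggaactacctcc
Plxnd1 and Nrp1, which differed in opposite directions, each held 1 half-site, and the 250 bases shown for Sema3e and Sema3d held 0. In the window of 300 bases, which runs 50 bases past the start, Sema3e held 1 and the counts of the other 3 genes were the same. Their GC content was 64.8% for Plxnd1, 64.4% for Nrp1, 48% for Sema3e and 46.8% for Sema3d. Over windows of 300 bases, 27 of the 79 that belong to 63 guidance genes held a half-site on either strand, or 34.2%, beside 40.5% of all 32851 windows. The whole element GGTCANNNTGACC, which reads the same on both strands and holds a half-site at each end, was in 0 of the 79 windows and in 0.07% of all. A match of letters is a description of the window and not a binding site.

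The ephrin ligands had a median log2 fold change of -0.12, and 1 of 8 was lower at an unadjusted p under 0.05. Efna3, a lipid-anchored ephrin known from astrocytes that touch EphA4-bearing spines, read 64.0 and 69.8 CPM in FLOX+GCI and 59.7 and 57.0 CPM in FBN-ARO-KO+GCI. Its groups did not overlap, and its log2 fold change was -0.20 ± 0.08 (SE), with an adjusted p of 0.300 by edgeR's quasi-likelihood test. Efnb3 read 191 and 166 CPM against 183 and 185 CPM, and its groups overlapped, with a log2 fold change of 0.04 ± 0.09 (SE). Efna4 was near the filter at 22 and 13 counts against 21 and 14 counts, a log2 fold change of -0.33 ± 0.44 (SE). The other 5 ephrins had log2 fold changes between -0.33 and -0.06.

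Of the 13 Eph receptors tested, 2 were higher and 1 lower at an unadjusted p under 0.05, and all 3 are of the EphA class, which mainly binds lipid-anchored ephrins. Epha8, on chromosome 4 of mm9 from 136485334 to 136512731, read 4.27 and 4.22 CPM in FLOX+GCI and 2.59 and 1.88 CPM in FBN-ARO-KO+GCI. The controls were almost equal and both knockout libraries lay well below them, with a log2 fold change of -0.92 ± 0.24 (SE) and an adjusted p of 0.238 by edgeR's quasi-likelihood test. It stood at 55 to 107 counts per library. Epha6 read 55.6 and 66.9 CPM against 70.7 and 85.7 CPM, a log2 fold change of 0.35 ± 0.12 (SE). Epha3 read 9.54 and 10.3 CPM against 12.5 and 13.0 CPM, a log2 fold change of 0.36 ± 0.13 (SE). Both were higher in each knockout library than in either control, and each had an adjusted p of 0.255.

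The Eph receptors with the highest levels per kb were Epha4 and Epha7. Epha4 read 458 and 403 CPM in FLOX+GCI and 458 and 493 CPM in FBN-ARO-KO+GCI for a log2 fold change of 0.15 ± 0.09 (SE). Its higher control and lower knockout library were less than 1 CPM apart. Epha7, another EphA receptor of hippocampal neurons, read 182 and 212 CPM against 209 and 214 CPM, and the groups overlapped. Of the 5 Eph receptors above 10 CPM per kb, Epha6, Epha5 and Ephb6 were the others, with log2 fold changes of 0.35, 0.20 and -0.26 and no overlap between genotypes. The 8 Eph receptors not given by library had log2 fold changes between -0.50 and 0.20 and no unadjusted p under 0.0547.

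In the Slit and Robo families no gene had an unadjusted p under 0.05, and the median log2 fold change was 0.03. Slit1, the Slit with the highest level, read 226 and 239 CPM in FLOX+GCI and 241 and 213 CPM in FBN-ARO-KO+GCI. Slit2 read 46.3 and 44.2 CPM against 45.9 and 52.1 CPM, and Slit3 read 64.4 and 59.5 CPM against 60.9 and 66.8 CPM. All 3 Slits, the secreted repellents, overlapped between genotypes. Robo1 read 81.3 and 77.6 CPM against 80.6 and 81.5 CPM, and it overlapped too. Robo2 read 114 and 115 CPM against 122 and 145 CPM, a log2 fold change of 0.22 ± 0.10 (SE) with no overlap and an adjusted p of 0.306 by edgeR's quasi-likelihood test. Robo3, known for setting when commissural axons answer to Slits, read 7.14 and 9.13 CPM against 6.85 and 5.60 CPM, a log2 fold change of -0.38 ± 0.19 (SE), and both knockout libraries lay below both controls. Robo4, a Robo of endothelial cells, had the remaining value, -0.29 on the log2 scale.

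All 6 netrins had a log2 fold change below 0, with a median of -0.32. All 4 secreted netrins (Ntn1, Ntn3, Ntn4 and Ntn5) were lower in both knockout libraries than in either control, as were 25.8% of all genes. An unadjusted p under 0.05 was found for 3 of them, where 7.82% of all genes were lower by that rule. The log2 fold changes of these 4 were below 0 in all 13 alternative fits as well, but with the GC correction their median went from -0.43 to -0.17 and 1 of them, Ntn4, kept an unadjusted p under 0.05. Ntn4, a netrin related to laminin beta chains and known from basement membranes, read 5.99 and 6.73 CPM in FLOX+GCI and 4.65 and 3.76 CPM in FBN-ARO-KO+GCI, and the log2 fold change was -0.60 ± 0.19 (SE), with an adjusted p of 0.248 by edgeR's quasi-likelihood test. Ntn5 read 6.19 and 5.80 CPM against 4.16 and 4.51 CPM, a log2 fold change of -0.47 ± 0.18 (SE) and an adjusted p of 0.266. Ntn3 and Ntn1 had log2 fold changes of -0.39 and -0.24. The sum of the 4 secreted netrins was 33.2 and 34.9 CPM in FLOX+GCI and 27.6 and 24.2 CPM in FBN-ARO-KO+GCI.

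The netrin-G ligands, which are lipid-anchored and act at synapses through other receptors, stood higher. Ntng1 read 47.3 and 50.3 CPM in FLOX+GCI and 43.6 and 52.5 CPM in FBN-ARO-KO+GCI, and its groups overlapped. Ntng2 read 25.5 and 24.4 CPM against 22.2 and 20.1 CPM, a log2 fold change of -0.24 ± 0.11 (SE), with no overlap.

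Of the 4 Unc5 receptors, Unc5a was lower at an unadjusted p under 0.05. It read 205 and 200 CPM in FLOX+GCI and 183 and 170 CPM in FBN-ARO-KO+GCI for a log2 fold change of -0.20 ± 0.07 (SE) with no overlap and an adjusted p of 0.259 by edgeR's quasi-likelihood test. Unc5b, Unc5c and Unc5d had log2 fold changes of -0.14, 0.18 and -0.05. Unc50, a membrane protein that the letters of the rule take in, read 34.9 and 34.1 CPM against 34.7 and 36.1 CPM.

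**Figure D3:**
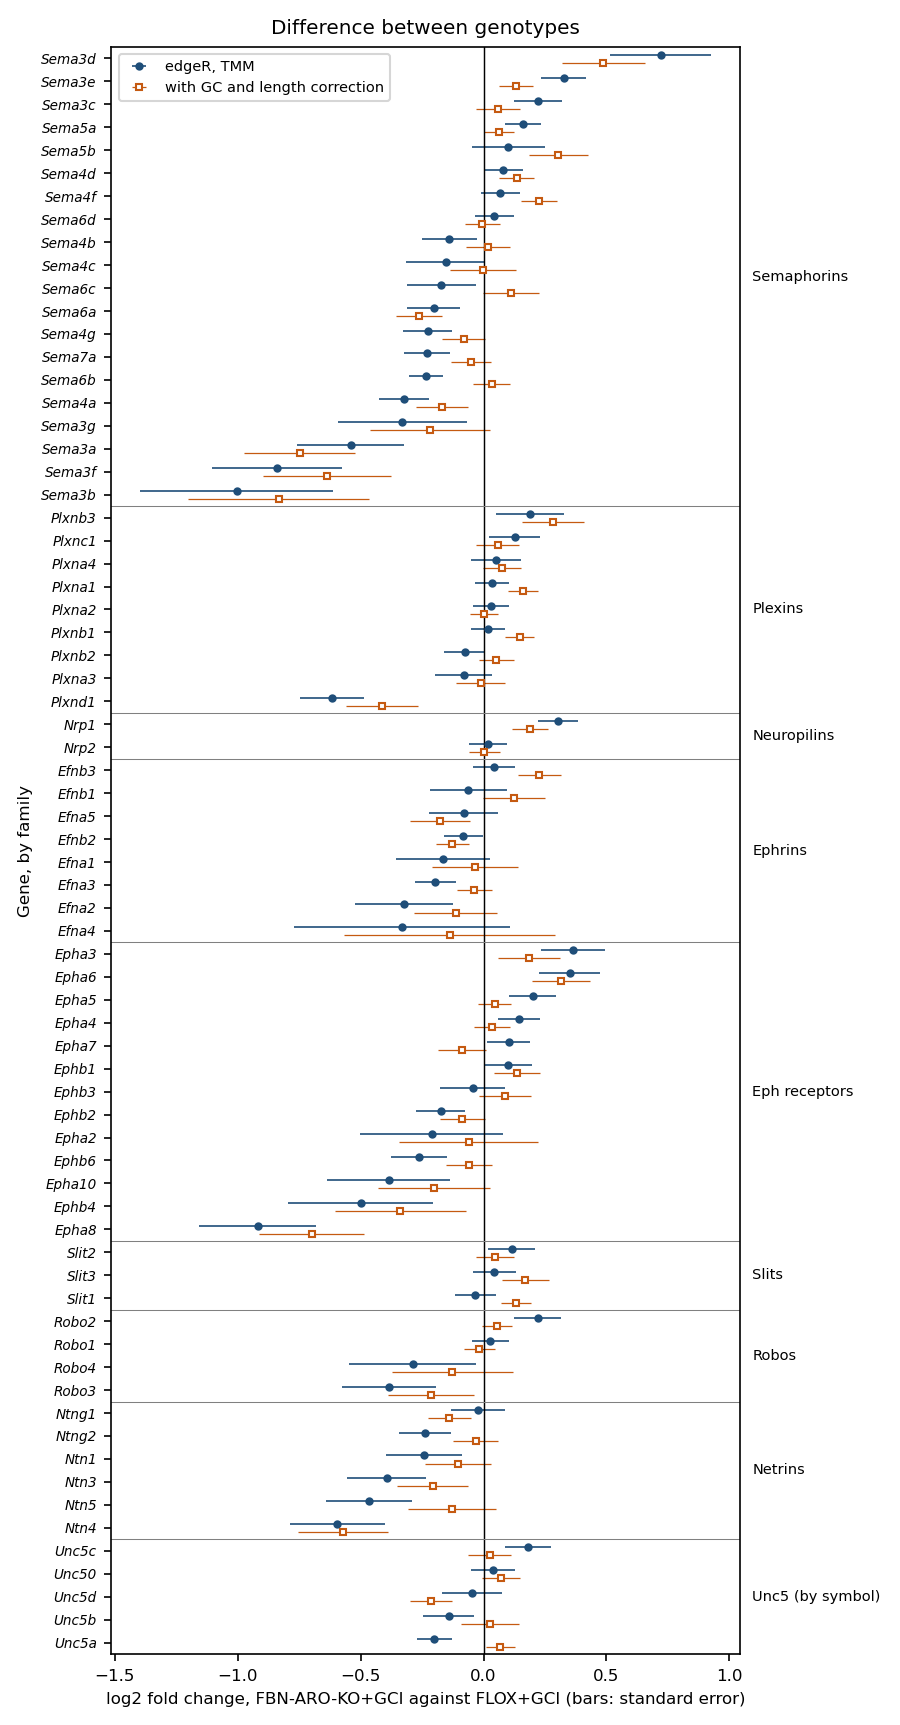
Log2 fold changes of FBN-ARO-KO+GCI against FLOX+GCI are shown for the 70 genes by family, as filled circles from edgeR with TMM scaling and as open squares after GC content and length were corrected for, with bars for the standard error. Sema3d is farthest to the right and Sema3b farthest to the left, and Sema6b and Unc5a move from left of 0 to just right of it with the correction.

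The direction of the guidance genes went with the GC content of their transcripts. Their median GC content was 56.3%, beside 50.6% for the 14004 tested genes with a coding transcript. Of the 40 with a GC content of 55% or more, 33 had a log2 fold change below 0, with a median of -0.22. Of the 24 under 50%, 18 were above 0, with a median of 0.12. Across the 70 genes, Spearman's rho between GC content and log2 fold change was -0.646, and across all genes it was -0.548. Between the FBN-ARO-KO+GCI libraries alone, replicate 2 minus replicate 1 gave a rho of -0.583 over the guidance genes, and between the FLOX+GCI libraries -0.135. Genes share their libraries and are not independent replicates, so these are descriptions.

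A fit that smooths out GC content and length in each library gave a median log2 fold change of -0.001 for the guidance genes and 0.03 for all genes. At an unadjusted p under 0.05 it had 8 of the 70 higher and 7 lower, where it took 7.89% of all genes as higher and 3.48% as lower. The 7 lower were thus still a larger share of the guidance genes than of all genes. With and without the correction, 8 of the 70 genes kept an unadjusted p under 0.05 and their direction. The share of all genes that did so was not counted, so this number has no background beside it. The 8 were Nrp1 at a corrected log2 fold change of 0.19, Sema3d at 0.49, Epha6 at 0.32, Plxnd1 at -0.41, Epha8 at -0.70, Sema3f at -0.64, Sema3a at -0.75 and Ntn4 at -0.57. Sema3a has one of the lowest GC contents of the guidance genes, 40.8%, and lay below 0 where most such genes lay above. Sema3e went from 0.33 to 0.13 and Epha3 from 0.36 to 0.18, while Sema6b went from -0.23 to 0.03 and Unc5a from -0.20 to 0.07. Sema4a, Sema7a, Efna3 and Ntn5 kept their direction at -0.17, -0.05, -0.04 and -0.13.

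**Figure D4:**
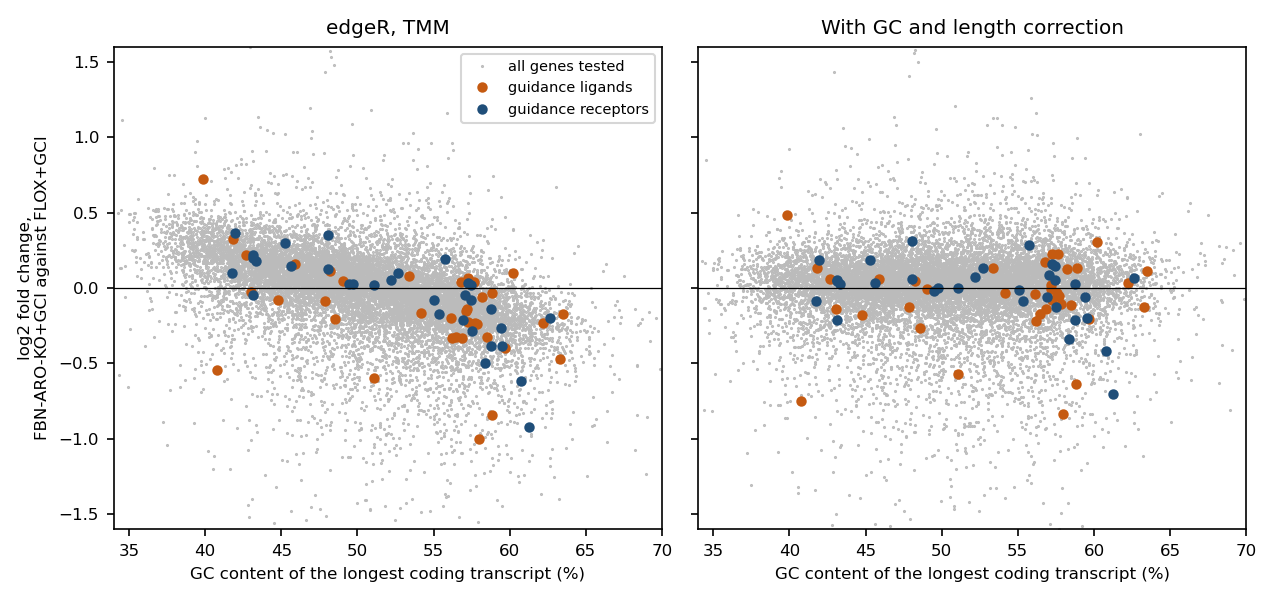
The log2 fold change of FBN-ARO-KO+GCI against FLOX+GCI is plotted over the GC content of the longest coding transcript, with grey dots for all genes and colored circles for guidance ligands and receptors. Points beyond 1.6 on the vertical axis or outside the drawn GC range are not shown. Without correction (left) the cloud slopes down from low to high GC content, with a rho of -0.646 over the guidance genes, and with correction (right) the rho over them is -0.167.

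Markers of vessels and of the leptomeninges differed between the libraries as well. All 5 endothelial, 4 mural cell and 5 leptomeningeal markers had a log2 fold change below 0, with medians of -0.42, -0.46 and -0.94. Cdh5, Pdgfrb, Kcnj8 and Col1a1 were lower in both knockout libraries than in either control, as were 25.8% of all genes. The rest overlapped between genotypes. The summed level of 5 endothelial markers was 187 and 129 CPM in FLOX+GCI and 144 and 102 CPM in FBN-ARO-KO+GCI. That of 4 mural cell markers was 131 and 81.9 against 101 and 59.9 CPM, and that of 5 leptomeningeal markers was 316 and 169 against 196 and 113 CPM. All 3 sums thus had the order FLOX+GCI replicate 1, FBN-ARO-KO+GCI replicate 1, FLOX+GCI replicate 2, FBN-ARO-KO+GCI replicate 2, from high to low. The same order was found in 8 of the 70 guidance genes, or 11.4%, and in 4.71% of all genes. Chosen after their values were seen, Ephb4, a venous Eph receptor, read 13.2 and 8.64 against 9.77 and 5.60 CPM, Robo4 read 10.2 and 6.04 against 7.33 and 5.97 CPM, and the arterial Sema3g read 8.66 and 6.13 against 7.15 and 4.57 CPM. These are the levels in FLOX+GCI and then FBN-ARO-KO+GCI replicates 1 and 2, and all 3 genes overlapped between genotypes. The others of the 8 were Efna1, Efna4, Plxnb2, Sema4c and Sema6c. Nrp1, also the co-receptor of VEGF, did not have this order and was higher in both knockout libraries.

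Sema3b was highest in FLOX+GCI replicate 1 and lowest in FBN-ARO-KO+GCI replicate 2, as these sums were. The part of vessel and leptomeningeal RNA in the values of Sema3b, Sema3f, Ntn4, Ephb4, Robo4 and Sema3g was not tested. Plxnd1, which endothelium also expresses, had its highest level in FLOX+GCI replicate 2 and its lowest in FBN-ARO-KO+GCI replicate 1, an order other than that of the vessel sums. Ntn4, highest in FLOX+GCI replicate 2, and Sema3f, lowest in FBN-ARO-KO+GCI replicate 1, did not have the order of the sums either. Single markers did not all have that order. Chosen after its values were seen, the mural cell marker Kcnj8 had the order of Plxnd1. It read 4.23 and 4.34 CPM in FLOX+GCI and 3.05 and 3.21 CPM in FBN-ARO-KO+GCI. Others, such as the endothelial marker Cldn5, had the order of the sums. The part of vessel RNA in the values of Plxnd1 was not tested.

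**Figure D5:**
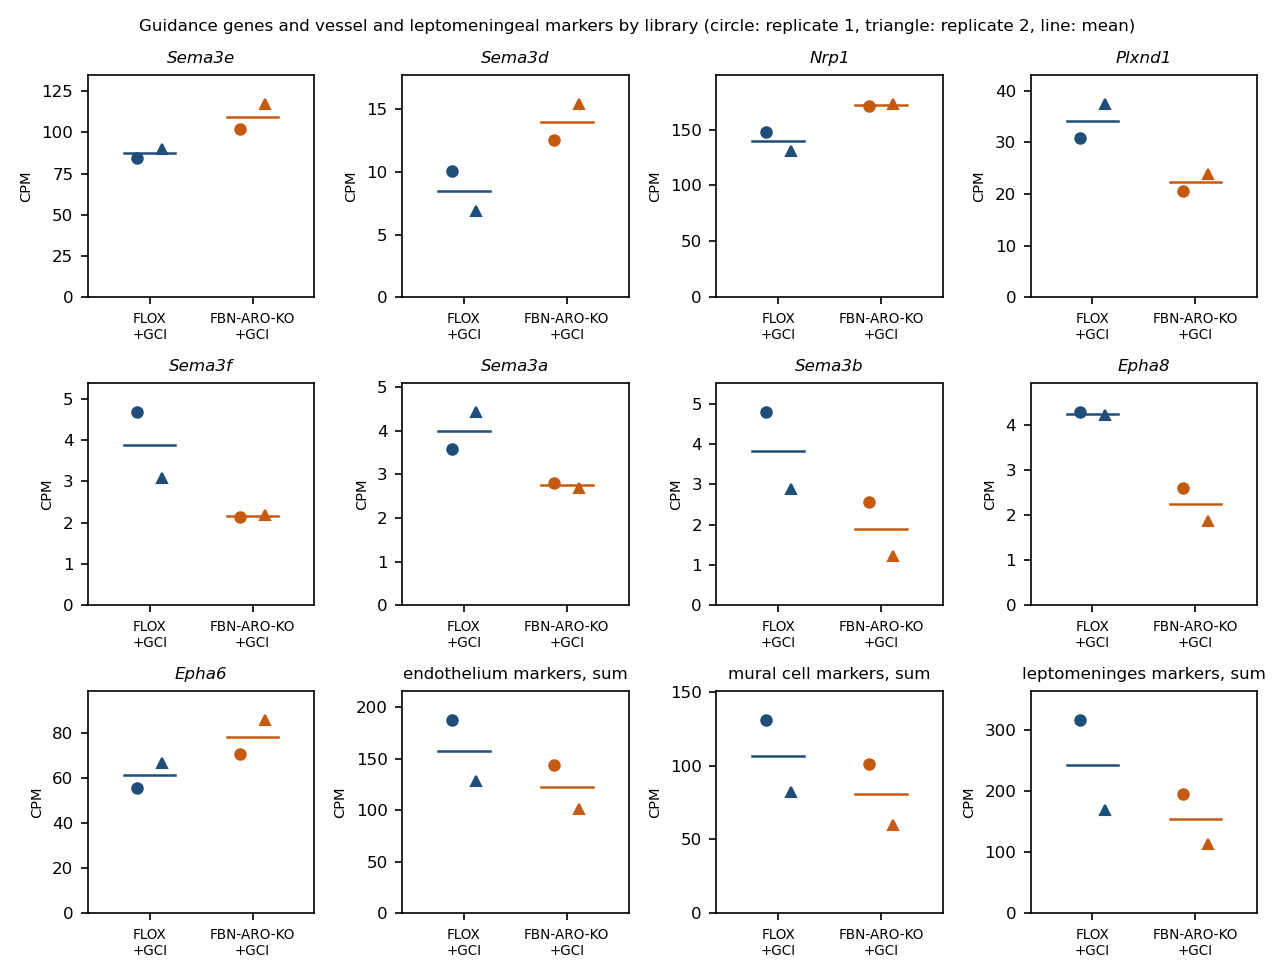
CPM on a linear axis from 0 is shown for 9 guidance genes and for the sums of endothelial, mural cell and leptomeningeal markers, with a circle for replicate 1, a triangle for replicate 2 and a line at the mean of each genotype. The 9 genes do not overlap between genotypes, while in the 3 marker sums FBN-ARO-KO+GCI replicate 1 lies above FLOX+GCI replicate 2.

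The tissue label was checked with markers of other cells and regions, whose sums are given with FLOX+GCI replicates 1 and 2 first. Excitatory neuron markers summed to between 7941 and 8253 CPM, dentate granule cell markers to between 168 and 209 and microglia markers to between 224 and 258 CPM, and these overlapped between genotypes. So did markers of thalamus, between 74.2 and 81.1 CPM, and of striatum, between 59.0 and 65.9 CPM. In the 9 lists that follow, of 17 in all, the sums did not overlap between genotypes, where 51.8% of single genes tested did not. Astrocyte markers were higher in the knockouts, at 4337 and 4085 against 4432 and 5098 CPM, as were oligodendrocyte markers at 3608 and 4124 against 4165 and 4278 CPM and their precursors at 157 and 164 against 184 and 174 CPM. Ependyma markers stood at 8.90 and 9.05 against 11.3 and 11.2 CPM, and cortex markers at 222 and 208 against 229 and 239 CPM. Lower in the knockouts were interneuron markers at 922 and 868 against 836 and 843 CPM, choroid plexus markers at 64.3 and 49.8 against 43.0 and 48.3 CPM, CA1 markers at 469 and 457 against 453 and 437 CPM and CA2 and CA3 markers at 348 and 349 against 341 and 311 CPM. Members of a list did not all go with its sum. Slc1a2 made up most of the astrocyte sum, at 3151 and 2988 against 3280 and 3800 CPM. Aldh1l1 of that list was lower, at 59.5 and 65.2 against 49.7 and 51.5 CPM, and the other 3 overlapped. Of the precursor markers Gpr17 alone was higher in both knockout libraries, and Pdgfra and Cspg4 were lower. Cux2 of the cortex list was lower in both and Amigo2 of the CA2 and CA3 list higher. The part of the listed cells in the values of the guidance genes was not tested. With the vessel and leptomeningeal lists these were 17 lists with 70 genes tested, of which 0 had an adjusted p under 0.05 in edgeR's quasi-likelihood test and 20 an unadjusted p under 0.05, 7 of them higher and 13 lower. These 20 are 28.6% of the markers tested, beside 16.5% of all genes. DESeq2 called 3 of them and the likelihood ratio test 4.

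Co-receptors and cytoplasmic effectors that act with the guidance receptors were followed as a list of 81 genes, all of them tested. No gene passed an adjusted p of 0.05 with edgeR's quasi-likelihood test, and 9 were higher and 1 lower at an unadjusted p under 0.05, or 11.1% and 1.23%, beside 8.72% and 7.82% of all genes. The median log2 fold change was 0.04. Rock2, a kinase downstream of RhoA that contracts the growth cone, read 255 and 253 CPM in FLOX+GCI and 290 and 333 CPM in FBN-ARO-KO+GCI for a log2 fold change of 0.30 ± 0.08 (SE). Abl2, a tyrosine kinase that acts on the actin of spines and axons, read 118 and 122 against 141 and 143 CPM, a log2 fold change of 0.24 ± 0.07 (SE). Dcc, the attractive netrin receptor, read 35.6 and 28.2 against 39.8 and 49.3 CPM, a log2 fold change of 0.48 ± 0.15 (SE). None of these overlapped between genotypes, and the adjusted p of edgeR's quasi-likelihood test was 0.238 for Rock2 and Abl2 and 0.244 for Dcc. DESeq2 gave Rock2 an adjusted p of 0.0405, and without FLOX+GCI replicate 1 Dcc had a log2 fold change of 0.66 with an adjusted p of 0.0461 by edgeR's quasi-likelihood test, in the fit with a single control library that called 1.3% of all genes. With the GC correction the log2 fold changes were 0.09 for Rock2, 0.20 for Abl2 and 0.47 for Dcc. Before correction, Dcc was thus higher in each knockout library while all 4 secreted netrins were lower. With the GC correction the median log2 fold change of these netrins was -0.17, and 1 of them, Ntn4, kept an unadjusted p under 0.05 in edgeR's quasi-likelihood test.

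Where genes overlap, the counts may be shared, since the sources used here do not give the strand setting. In the mm9 annotation 29 of the 72 genes overlap another gene, 25 of them on the opposite strand. On the same strand 11 overlap a gene, among them Ntn3, which overlaps Tbc1d24. Among those named here, Sema3e, Epha1, Epha5, Epha6, Epha7, Ephb4, Efna3, Efna4, Ntn1, Ntn3, Ntn4, Ntn5, Plxna1, Plxna4, Slit2, Slit3, Robo2, Unc5a and Unc5c have such a neighbor on the opposite strand, and Plxnd1, Sema3d, Sema3f, Sema3a, Sema3b, Sema6b, Epha8 and Nrp2 have none on either strand.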

How the data were processed

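Gene expression was measured by RNA-Seq in 4 hippocampus libraries. Per the labels, single-end reads of 50 nt had been mapped by the authors to mm9 with TopHat2 2.0.8b and assigned to genes with HTSeq, and raw counts of 22609 symbols were deposited, not normalized. The study compared genotypes with DESeq. The 5 counters of unassigned reads (43.4% to 45.5% of each library) were left out. The genotypes were then tested with edgeR 4.0.16 (quasi-likelihood, R 4.3.3) on all 14527 genes kept by filterByExpr (minimum count 10), with TMM scaling and Benjamini-Hochberg adjustment over all of them. Library values are given as TMM-scaled CPM, and the standard error (SE) of a log2 fold change was taken from the F statistic. For 2 against 2 libraries the lowest two-sided p of an exact permutation test is 0.333, and edgeR therefore shares its estimate of spread across genes.

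GENCODE M1 on NCBIM37 (mm9) gave gene positions and the length and GC content of the longest coding transcript. Efna5 and Ntng1 had no single locus there. The GC and length correction used natural splines (5 degrees of freedom) of each library's deviations. Alternatives were DESeq2 1.42.0, DESeq-style size factors, library totals, other filters, the likelihood ratio test, a replicate block and each library left out. The procedure was tested on simulated data.

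The members, lists, tests and alternatives were chosen with earlier results of these data known. Genes were named by rule. Named were members with an adjusted p under 0.05 in edgeR, the block fit or DESeq2, up to 10 in each direction with the smallest unadjusted p under 0.05 and no overlap, the 2 with the highest level and the 1 with the largest log2 fold change of each family, those below the filter, and members in counts of 5 or fewer. From the effector list the 3 with the smallest p were named. In that list 3 symbols were matched through older names.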

Additional observations from a re-analysis of the deposited data

How the results depend on the processing

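Across 33 named guidance genes and 461 alternative values, 434 kept the direction of the reported value and 27 turned it, in 12 genes, and 21 genes kept it throughout. Plxnd1, Sema3d and Nrp1 crossed the adjusted threshold in some fits. Groups of 2 libraries, transcript GC content and counts under 150 for Epha8, Sema3a, Sema3b and Sema3f limit the precision, and the cause of each change below was not tested.

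Genes called over the whole table numbered 2 with edgeR's quasi-likelihood test, 285 with DESeq2, 256 with its filter tuned for 0.1 (chosen after seeing the data), 294 with the likelihood ratio test, 5 with every gene of at least 1 count, 184 with the replicate block and 1 with the replicate block and GC and length correction, and between 0 and 193 with a library left out. Guidance genes called were 1 with DESeq2 (Nrp1), 1 with the likelihood ratio test (Plxnd1) and 1 with the replicate block (Plxnd1, adjusted p 0.0205, and 0.259 with GC and length correction added, where 0 were called), and between 0 and 2 with a library left out, 2 without FLOX+GCI replicate 1. With DESeq2's filter tuned for 0.1, Nrp1 had an adjusted p of 0.0546. The number at an unadjusted p under 0.05, reported as 18, was between 6 and 17 with a library left out, 6 without FBN-ARO-KO+GCI replicate 2. In the effector list, DESeq2 called 1 (Rock2), and leaving out a library gave between 0 and 1 (Dcc). Of the markers, DESeq2 called 3, the likelihood ratio test 4 and the replicate block 7 (Cdh5, Acta2, Col1a1, Slc6a13, Igf2, Ttr and Kcnj13, of which 0 with the correction added), with between 0 and 4 when a library was left out, 4 without FLOX+GCI replicate 2.

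The replicate numbers did not pair the libraries by any label, and with 2 pairs the correlation of same-numbered libraries, each taken against its group mean, was 0.129 over all genes and 0.37 over the guidance genes, a hint from the data and not the design.

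With GC and length correction the median log2 fold change was -0.0010 for all guidance genes, 0.0072 for semaphorins and -0.10 for netrins and Unc5 receptors, and with the replicate block added -0.0019, 0.0060 and -0.11. It was 0.023 for Eph receptors with a mean of at least 50 counts. With library totals only it was -0.24 for netrins and Unc5 receptors and 0.0059 for effectors. With a library left out, medians ranged from -0.24 to -0.045 for semaphorins, -0.22 to 0.035 for Eph receptors, -0.25 to -0.026 for ephrins, -0.0089 to 0.10 for Slits and Robos, -0.26 to -0.17 for netrins and Unc5 receptors and 0.025 to 0.083 for effectors.

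The log2 fold changes that turned direction with GC and length correction were -0.089 for Epha7, -0.017 for Robo1, 0.033 for Sema6b, 0.13 for Slit1 and 0.068 for Unc5a, and with the replicate block and the correction -0.085, -0.017, 0.031, 0.13 and 0.068. With library totals only, those of Nrp2, Plxna1 and Robo1 turned to -0.018, -0.0011 and -0.0081. With a library left out, ranges that cross 0 were -0.65 to 0.083 for Efna4, -0.060 to 0.15 for Efnb3, -0.037 to 0.074 for Nrp2, -0.16 to 0.10 for Ntng1, -0.011 to 0.076 for Plxna1, -0.066 to 0.17 for Plxna4, -0.0089 to 0.064 for Robo1, -0.13 to 0.053 for Slit1 and -0.023 to 0.10 for Slit3.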
